A study of Mus musculus with 2 samples.

Results

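Natural killer (NK) cells were described here as the 670 barcodes of 22401 kept barcodes that passed a transcript gate in 2 single-cell libraries of lymphocytes from Lewis lung carcinoma (LLC) tumours. The gate asked for at least 2 unique molecular identifiers (UMIs, 1 per captured RNA molecule) summed over Ncr1, Klrb1c and Klre1. It further asked for 0 UMIs of Cd3d, Cd3e, Cd8b1 and Cd79a, and for fewer than 5 of Lyz2. The gate kept 483 of 9765 barcodes in the wild-type (WT) library and 187 of 12636 in the library labelled Dusp2 knockout (KO). The members were thus chosen by their raw UMI counts of these 8 genes, whose levels describe the gate and support nothing below.

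Each genotype was 1 sample, so the 2 libraries have no replicate check, and no test between genotypes was possible. Both came from LLC-bearing mice, LLC being a mouse lung carcinoma line, and both are labelled as tumour-infiltrating lymphocytes run on a 10x Genomics 3' kit. The labels call the WT molecule total RNA and the KO molecule polyA RNA. The sources used here do not give the number of mice pooled, their age or strain, the sort, or the deleted stretch of Dusp2. Every interval below is a 95% interval for counting error only and says nothing of the spread between mice.

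NK cells are innate lymphocytes that kill stressed or transformed cells by releasing perforin and granzymes, and that secrete interferon-gamma and chemokines. Activating receptors and inhibitory receptors for MHC class I set their threshold, and in mice a CD27-bearing early stage is followed by a CD11b-bearing stage. Tissues also hold type 1 innate lymphoid cells (ILC1), which share many receptors with NK cells but carry CD49a, the Itga1 product, and have little Eomes. DUSP2 is a nuclear phosphatase that removes phosphate from MAP kinases.

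Genes outside the gate placed the members with NK cells. Levels are given as CPM, a gene's UMIs summed over the cells per 1000000 of all their UMIs. Gzma, a granzyme of NK cells, was at 2672 CPM in WT and 2453 CPM in KO members, against 141 and 457 CPM in cells gated as CD8 T cells and 2.90 and 6.41 CPM in cells gated as macrophages. Eomes, a transcription factor of NK cells, was at 288 and 200 CPM in the members, against 24.9 and 43.6 CPM in the CD8 T-gated cells. Prf1, the pore-forming perforin, was at 510 and 673 CPM. Of 8 NK genes that the gate did not use (Gzma, Eomes, Tbx21, Klrk1, Prf1, Nkg7, Klra8, Klra4), the median member held 31 UMIs in WT and 26 in KO. However, 18 WT and 12 KO members held under 5, and the label is weak there. It is also weak in the 66 WT and 44 KO members with at least 10 UMIs of the granzyme Gzmc. Their Eomes was at 27.8 and 15.0 CPM and their Klra4 at 21.3 and 38.6 CPM. Nkg7 and Klrk1 were also present in WT CD8 T-gated cells, at 1418 and 356 CPM, against 1695 and 366 CPM in WT members.

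RNA of genes listed as markers of other cell types was also present in the members, and whether it came from such cells was not tested. Of 11 T-cell markers 6 were measured (at least 10 UMIs in all), and their summed level was 1000 CPM in WT and 1001 CPM in KO, mostly Trbc1, a T-cell receptor constant gene, at 631 and 564 CPM, against 1021 and 723 CPM in the CD8 T-gated cells. It was found in 85.5% of WT and 78.1% of KO members, against 77.0% and 56.7% of those cells. Trac was at 22.9 and 11.9 CPM, against 696 and 729 CPM there. The 15 macrophage and monocyte markers summed to 677 and 578 CPM. Dendritic-cell markers, 6 of 10 measured, summed to 1481 and 1077 CPM. At least 20 UMIs of Cd74, an MHC class II chaperone, were held by 6 WT and 5 KO members. Antibody RNA separated the libraries: Igkc had 0 UMIs in WT members and 1082 UMIs, 995 CPM, in KO members. In KO it was found in 96.8% of the members, and also in 95.8% of CD8 T-gated and 95.9% of macrophage-gated cells. B-cell markers summed to 2.43 and 36.8 CPM, neutrophil markers to 5.21 and 23 CPM, and tumour and stroma markers to 195 and 147 CPM. ILC2, ILC3 and mast-cell markers summed to 102 and 85.5 CPM. In WT this was mostly Gata3, at 87.1 CPM, against 89.9 CPM in the WT CD8 T-gated cells. Antibody and T-cell receptor genes were left out of the ranking below, and the part of the other RNAs in the differences was not tested.

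At the gate's edge the marker sum parted the cells in steps. Among barcodes that met every other condition, Gzma was at 10.8 CPM (WT) and 15.2 CPM (KO) where the sum of the 3 gate genes was 0. It was at 553 and 817 CPM just outside, at a sum of 1 (134 and 82 cells), and at 2189 and 3674 CPM just inside, at a sum of 2 (98 and 44 cells). Cd74 was at 6722 and 7518 CPM just outside and at 3134 and 453 CPM just inside. Cells with a gate sum of at least 2 and a UMI of Cd3d or Cd3e numbered 353 in WT and 207 in KO, and they were not members. They were counted whatever their Cd8b1, Cd79a and Lyz2 UMIs.

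Some barcodes had nearly the same counts as another and are called near-identical here. Pairs were picked for a correlation of at least 0.1 and a chi-square per gene of at most 1.3. This gave 13 groups of 26 barcodes among WT members and 12 groups of 26 among KO members. The median chi-square of the pairs, 1.08 and 1.09, was thus low by choice. Over all pairs of members with at least 4000 UMIs it was 2.20 and 2.70, but the groups held barcodes down to 1456 (WT) and 1498 (KO) UMIs. At low depth sampling noise can hide differences, and whether the barcodes were copies was not tested. The largest KO group had 4 barcodes, which together held 1419 Gzmc UMIs, and 1 KO pair held 752 of the 3407 Gzmf UMIs. Values with 1 barcode kept per group (470 WT and 173 KO cells) are given beside the granzymes. The libraries shared 31 barcodes, and 0 of these were members in both.

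Dusp2 followed its label. WT members held 3123 Dusp2 UMIs, a level of 1084 CPM, and KO members 2 UMIs, or 1.84 CPM, a log2 ratio of -9.20 (-12.2 to -7.35). A Dusp2 UMI was found in 90.1% of WT members and in 1.07% of KO members. After thinning each cell to 2000 UMIs, which left out 14 WT and 30 KO members with fewer, the shares were 77.6% and 0%. They were 58.2% and 0.451% in CD8 T-gated cells and 9.68% and 1.64% in macrophage-gated cells. High WT Dusp2 and its near absence in KO were thus not particular to the members. Its level was 516 and 5.36 CPM in CD8 T-gated cells, and 569 and 13.7 CPM in T-gated cells with NK receptors. Within WT, Dusp2 was at 1434 CPM (1295 to 1583) in members with an Itgam UMI but none of Cd27 or Itga1, and at 832 CPM (759 to 910) in members with an Itga1 UMI, which did not overlap.

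Members were a smaller share of the KO library: 1.48% (1.28 to 1.71, exact binomial) of kept barcodes against 4.95% (4.52 to 5.40) in WT, a log2 ratio of -1.74 (-1.98 to -1.50). Their median depth was 5344 UMIs per cell in WT and 4579 in KO. The KO library also held more barcodes with Cd79a, a B-cell receptor subunit. Over barcodes without it, the shares were 5.06% and 2.69%, a log2 ratio of -0.91 (-1.15 to -0.67). With 1 library each, a share set by the sort or the tissue and one set by genotype cannot be told apart.

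Between the libraries most genes of the members lay close together, and a small group led by granzymes stood far apart. Over the 10168 genes with at least 10 UMIs in the members, the median log2 ratio of KO over WT was -0.07. Counts of 2-fold differences cover the 4696 genes that reached 50 UMIs in either library and averaged at least 30 CPM, leaving out mitochondrial, ribosomal, haemoglobin, antibody and T-cell receptor genes. Of these, 29 (0.618%) were at least 2-fold higher in KO and 62 (1.32%) at least 2-fold lower. With the median gene set to 0, which moved all ratios by 0.09, the split was 35 higher and 35 lower. No p-value stands behind these counts.

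Gzmg, Gzmf and Gzmd, granzymes of 1 cluster, had the highest ratios in KO members among the genes named by rule. Jaml, Spp1 and Upp1 followed, ahead of Gzme and Gzmc of the same cluster. Granzymes are serine proteases that enter target cells through perforin pores. Gzmb to Gzmg and Gzmn lie in a row on chr14:56117626-56262260 (mouse GRCm38, 145 kb, all on the minus strand), while Gzma lies at chr13:113093825-113100981. The 250 bases before the RefSeq transcript start (GRCm38.p6, minus strand) are shown for the 3 members of the cluster that the results turn on and for Gzmb, which differed less. Capitals mark TGTGGT, the core of the motif of RUNX factors, or its reverse complement ACCACA.
Gzmc, chr14:56234658-56234907: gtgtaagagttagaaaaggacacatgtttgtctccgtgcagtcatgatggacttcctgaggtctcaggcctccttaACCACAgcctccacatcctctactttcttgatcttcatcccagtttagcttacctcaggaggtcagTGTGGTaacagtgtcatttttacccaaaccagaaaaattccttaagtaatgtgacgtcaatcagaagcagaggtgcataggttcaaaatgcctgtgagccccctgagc
Gzmd, chr14:56132594-56132843: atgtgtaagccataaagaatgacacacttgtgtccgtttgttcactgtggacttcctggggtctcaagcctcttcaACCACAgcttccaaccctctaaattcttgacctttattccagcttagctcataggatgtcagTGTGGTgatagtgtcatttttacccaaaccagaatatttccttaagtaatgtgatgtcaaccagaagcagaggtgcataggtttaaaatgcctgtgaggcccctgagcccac
Gzmf, chr14:56211408-56211657: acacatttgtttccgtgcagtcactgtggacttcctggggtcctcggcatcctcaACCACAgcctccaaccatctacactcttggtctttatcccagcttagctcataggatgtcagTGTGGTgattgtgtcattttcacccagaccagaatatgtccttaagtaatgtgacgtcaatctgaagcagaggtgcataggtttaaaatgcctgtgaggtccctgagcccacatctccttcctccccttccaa
Gzmb, chr14:56262335-56262584: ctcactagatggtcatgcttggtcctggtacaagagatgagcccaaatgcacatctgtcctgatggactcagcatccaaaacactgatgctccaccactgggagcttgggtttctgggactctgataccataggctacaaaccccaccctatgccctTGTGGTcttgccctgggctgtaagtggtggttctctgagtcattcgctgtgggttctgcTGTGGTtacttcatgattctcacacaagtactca

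These stretches resembled one another within the cluster. TGTGGT, searched on both strands, had 2 matches in each of Gzmb, Gzmc, Gzmd, Gzme, Gzmf and Gzmg and 0 in Gzmn. At least 1 match was present in 14.2% of 27025 RefSeq promoter windows of the same length, and at least 2 in 1.26%. GGAAA, a core bound by NFAT and other factors, had 1 match in Gzmd, Gzme, Gzmf and Gzmg and 0 in Gzmb and Gzmc, against 55.6% of all windows, and no match overlapped TGTGGT. The AP-1 motif TGANTCA had 1 match, in Gzmb, against 6.87% of windows. A match is a description of these letters. Among Gzmc to Gzmg the windows were 71.5% to 94.8% identical over 10 pairs, and 44.6% to 52.2% over the 11 pairs with Gzmb or Gzmn. The last 300 transcript bases, which a 3' kit reads, were 82.4% to 88.2% identical among Gzmd, Gzme, Gzmf and Gzmg and 49.2% to 54.1% between Gzmc and those. How counts divide among Gzmd, Gzme, Gzmf and Gzmg is therefore uncertain, and Gzmc is more distinct.

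Gzmc was at 2700 CPM in WT members (7781 UMIs) and 11397 CPM in KO members (12399 UMIs), a log2 ratio of 2.08 (2.04 to 2.12). Gzmd was at 399 and 2438 CPM, a log2 ratio of 2.61. Gzme was at 421 and 1793 CPM, a log2 ratio of 2.09. All 3 were detected in WT members. Members with at least 10 Gzmc UMIs were 13.7% of WT and 23.5% of KO. Among them the log2 ratios were 1.09 for Gzmc, 1.64 for Gzmd and 1.09 for Gzme, below the values over all members. The libraries thus differed both in the share of such cells and in the level within them. Gzmf lay mostly in KO members, at 51.4 CPM (148 UMIs) in WT and 3132 CPM (3407 UMIs) in KO, a log2 ratio of 5.93 (5.69 to 6.18). Gzmg, at 18 and 535 UMIs, had a log2 ratio of 6.30 (5.62 to 7.06).

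Few cells carried these UMIs, which limits each ratio. In KO, 2 of the 22 cells with Gzmf held at least 50% of its UMIs, and the highest, a barcode of 72318 UMIs, held 39.3%. In WT, 1 of 5 cells held 71.6%. For Gzmc, 8 of 62 KO cells and 14 of 131 WT cells held that much. With 1 barcode per near-identical group the log2 ratios were 2.07 for Gzmc, 2.56 for Gzmd, 2.03 for Gzme, 5.86 for Gzmf and 6.05 for Gzmg. Among members of at most 2 times their library's median UMIs, they were 0.95, 1.35, 0.37, 3.70 and 4.03, lower in each case by more than 1.5-fold. That cut left out 30 of 483 WT and 34 of 187 KO members. It left 2399053 of 2881687 WT and 613538 of 1087906 KO UMIs. KO members with at least 10 Gzmc UMIs had a median of 9362 UMIs, against 4579 over all KO members. The cut thus took out many of them. Cells with Gzmd were 7.89% of WT and 19.7% of KO members after thinning, against 0.103% and 0.109% of macrophage-gated cells, and 9.11% and 19.8% before it. For Gzmf the thinned shares were 0.640% and 11.5%, against 0.206% and 0.327%.

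The other granule genes differed less. Of 22 genes for granules and death ligands, all measured, 17 were higher and 5 lower in KO, with a median of 0.27, and 6 of the 20 that entered the ranking were at least 2-fold higher. Gzmb was at 593 and 1194 CPM, a log2 ratio of 1.01 (0.91 to 1.12), and Prf1 had one of 0.40 (0.27 to 0.53). Gzma had a ratio of -0.12 (-0.19 to -0.06), which turned to 0.28 in members of at most 2 times the median UMIs, and Nkg7, a granule membrane protein, and Serpinb6b, an inhibitor of proteases, stood lowest at -0.18 each.

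For Gzmd, Gzme and Gzmf the order of the libraries was the opposite in CD8 T-gated cells (at least 2 UMIs of Cd3d and Cd3e, at least 1 of Cd8b1, 0 of the 3 NK gate genes; 204 WT and 504 KO cells). There the log2 ratio of Gzmd was -4.01 (-5.40 to -2.85), of Gzme -6.28 (-9.36 to -4.37) and of Gzmf -3.88 (-4.50 to -3.30). These rest on few UMIs, 47 and 7 for Gzmd, 65 and 2 for Gzme, and 178 and 29 for Gzmf. They also rest on few cells: Gzmd was found in 1.47% of WT and 0.595% of KO CD8 T-gated cells, Gzme in 2.94% and 0.397%, and Gzmf in 3.92% and 1.98%. Gzmc was at -0.33 (-0.74 to 0.08). These intervals hold counting error only and make no allowance for UMIs clumped in few cells. With 1 library per genotype the difference between cell types was not tested. In T-gated cells with NK receptors (286 and 151), Gzmc had a ratio of 0.91, Gzmd 1.52, Gzmf 0.91 and Gzme -0.67.

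**Figure D1:**
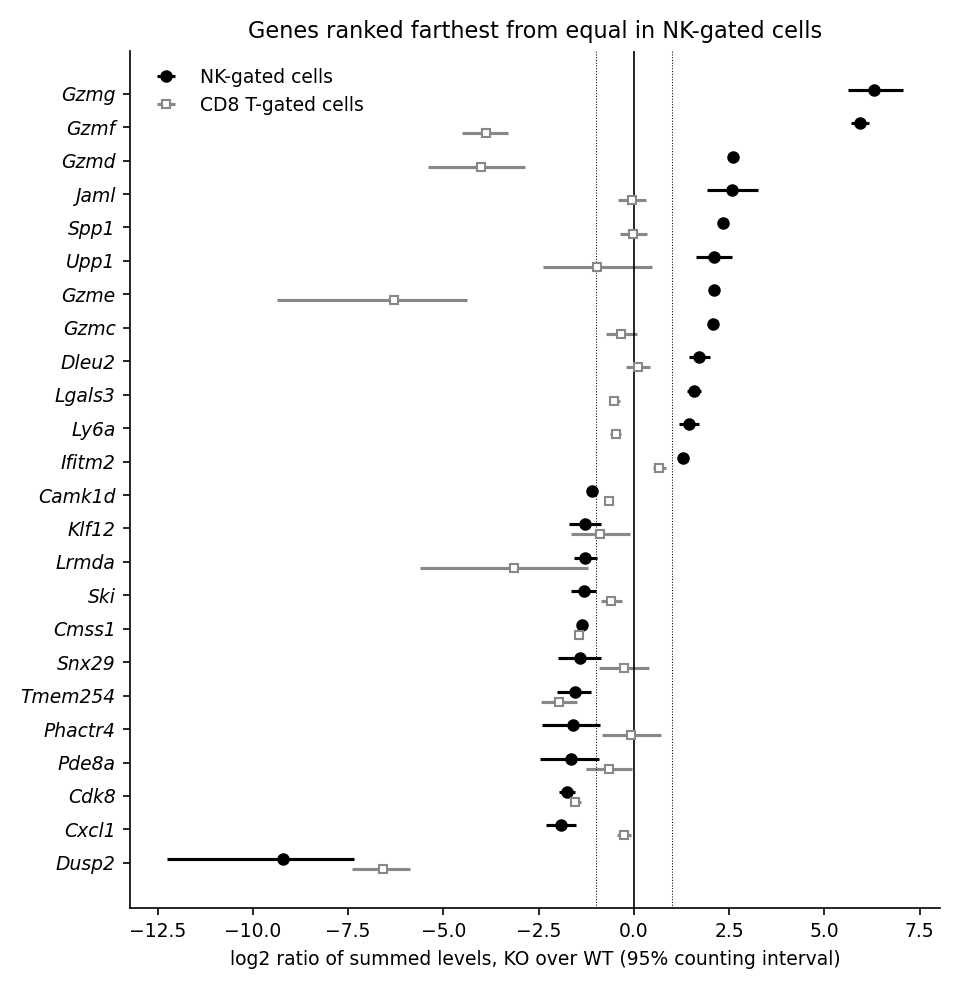
Log2 ratio of summed CPM, KO over WT, for the 24 genes that the naming rule picked in NK-gated cells (black points), with the same genes in CD8 T-gated cells (grey squares) where an interval exists; bars are 95% counting intervals, dotted lines mark 2-fold. Gzmd, Gzme and Gzmf lie on opposite sides of 0 in the 2 cell types, and Dusp2 lies farthest left in both.

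Outside the cluster, Spp1, which encodes the secreted phosphoprotein osteopontin, was at 316 CPM in WT and 1589 CPM in KO members, a log2 ratio of 2.33 (2.21 to 2.45). Its ratio over all kept barcodes outside the gate was -0.45. After thinning, Spp1 was found in 14.7% of WT and 29.9% of KO members, against 6.47% and 5.64% of CD8 T-gated cells and 24.2% and 26% of macrophage-gated cells. Upp1, a uridine phosphorylase, had a ratio of 2.11, Jaml, an adhesion molecule, 2.57, and Dleu2, a noncoding RNA, 1.72. Each had at most 246 UMIs in KO. Lgals3, a galectin, was at 168 and 498 CPM, a ratio of 1.57. Ifitm2, an interferon-inducible membrane protein, was at 445 and 1098 CPM, a ratio of 1.3, and Ly6a, the Sca-1 antigen, at 80.2 and 220 CPM, a ratio of 1.45. At most 2 times the median UMIs, Ifitm2 stood at 0.51, Ly6a at 0.47 and Upp1 at 1.23. T-gated cells with NK receptors, which are no members, had ratios of 1.39 (1.0 to 1.79) for Spp1, 1.16 for Ifitm2, and 1.06 each for Ly6a and Jaml. There Upp1 stood at 1.31 (-0.10 to 2.76) on 9 and 11 UMIs, Dleu2 at 0.60 and Lgals3 at 0.48.

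Besides Dusp2, several genes that ranked lowest in KO members were also lower in KO over all kept barcodes outside the gate. Those barcodes differed in make-up, with 39 WT and 3938 KO B-gated cells and 3357 and 1087 macrophage-gated cells. How far the make-up set these ratios was not tested. Cdk8, a kinase of the Mediator complex, was at 709 and 210 CPM, a log2 ratio of -1.75 (-1.96 to -1.55), beside -1.54 in CD8 T-gated cells and -1.68 in all kept barcodes outside the gate. Cmss1 stood at -1.35, -1.43 and -0.94 in the same 3 sets, and Camk1d, a calcium-dependent kinase, at -1.09, -0.66 and -0.49. Ski, a co-repressor of SMAD proteins, stood at -1.31 (196 and 79.0 CPM), against -0.59 and -0.55. Snx29 and Klf12 were lower in the members, at -1.40 and -1.27, and higher over all kept barcodes outside the gate, at 0.62 and 0.95. Their ratios were also negative in CD8 T-gated cells, T-gated cells with NK receptors and macrophage-gated cells. In that order, Snx29 stood at -0.26 (-0.90 to 0.41), -0.30 (-1.05 to 0.40) and -0.18 (-0.31 to -0.06). Klf12 stood at -0.88 (-1.65 to -0.10), -1.08 (-2.24 to -0.07) and -0.46 (-2.88 to 1.35). In B-gated cells KO was higher, at 20.5 and 156 CPM for Snx29 and 1.08 and 17.3 CPM for Klf12. In the members Phactr4, a phosphatase regulator, stood at -1.60, Pde8a, a cyclic AMP phosphodiesterase, at -1.65, Lrmda at -1.27 and Tmem254 at -1.55. In the same order, they stood at -0.39, -1.23, -1.64 and -0.28 over all kept barcodes outside the gate. In CD8 T-gated cells they stood at -0.07, -0.65, -3.13 (11 and 3 UMIs) and -1.95. The ratio of Cxcl1, a neutrophil chemokine, of -1.90 rested on 1 WT cell with 413 of 615 UMIs, and was -0.42 without the highest cell of each library.

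Receptor genes lay on both sides of 0. Activating receptors, 18 measured, were higher in KO for 13 and lower for 5, with a median of 0.16, and 3 of the 17 ranked were at least 2-fold higher. These were Crtam at 1.2 (0.72 to 1.67), Slamf7, a self-ligand receptor, at 1.12 (0.78 to 1.47), and Cd160 at 1.07 (0.62 to 1.51). Klrk1, which encodes NKG2D, was at 366 and 479 CPM, a ratio of 0.39 (0.23 to 0.54). The lowest was Fcgr3, the receptor for antibody-coated targets, at -0.41. Inhibitory receptors, 21 measured, were higher for 13 and lower for 8, with a median of 0.18. Lag3 stood highest at 1.13 on 63 and 52 UMIs, Ctla4 lowest at -0.54, and Klrc1, which encodes NKG2A, was at 253 and 295 CPM, a ratio of 0.22. Of the signalling adaptors and kinases, 6 were higher and 12 lower (median -0.16), from Sh2d1b1, an adaptor of SLAM receptors, at 0.47 to Fyn, a Src kinase, at -0.73.

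The Ly49 receptors, which read MHC class I and are switched on in only part of the NK cells, were spread alike. After thinning, 32.6% of WT and 36.9% of KO members showed none of the 10 measured Klra genes, 31.8% and 28% showed 1, 22% and 19.7% showed 2, and 13.6% and 15.3% showed 3 or more, with overlapping intervals throughout. Klra8, which encodes Ly49H, was at 253 and 256 CPM.

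Secreted factors were mixed: of 15 cytokines and chemokines measured, 7 lay above 0 and 8 below (median -0.18). Xcl1, which attracts cross-presenting dendritic cells, was at 761 and 1616 CPM, a ratio of 1.09 (1.0 to 1.18). Csf2, which encodes GM-CSF, had the highest ratio, 1.95, on 24 and 35 UMIs, and Csf1 the lowest, -1.32, on 99 and 15. Ifng, which encodes interferon-gamma, was at 153 and 112 CPM, a ratio of -0.45 (-0.75 to -0.16). Of the trafficking genes 9 were higher and 11 lower (median -0.12), between Itgb7 at 0.31 and Itga2, the integrin known as CD49b, at -0.95. Of the cytokine receptors and their inhibitors 8 were higher and 15 lower (median -0.18), between Il2ra at 1.29 on 64 and 59 UMIs and Tgfbr1 at -0.77.

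Of 22 measured transcription factors of the NK lineage 17 lay below 0, with a median of -0.29, while over all genes 5725 of 10168 lay below 0, with a median of -0.07. Eomes was at 288 and 200 CPM, a ratio of -0.52 (-0.75 to -0.31), and Tbx21, which encodes T-bet, at 177 and 113 CPM, a ratio of -0.65. Among members with 0 Gzmc UMIs their ratios were -0.11 (-0.35 to 0.13) and -0.25 (-0.62 to 0.10), and members with at least 10 Gzmc UMIs were 13.7% of WT and 23.5% of KO. Ikzf3, which encodes Aiolos, stood lowest at -1.14 and Tcf7 highest at 0.40. Genes of the TGF-beta response were lower for 10 of 11 measured, with a median of -0.47. Among them, Smad7, an inhibitory SMAD, was at 375 and 225 CPM, a ratio of -0.73, and Rgs16 stood highest at 0.08. Within each library, members with an Itga1 UMI were also lower than the others for most TGF-beta genes. This held for 10 of 11 in WT (median -0.44) and 11 of 11 in KO (median -0.83). Such members held 19.8% of member UMIs in WT and 34.6% in KO. How far that set the ratios between libraries was not tested. With 1 library per genotype these counts describe the 2 libraries only.

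Genes of NFAT and ERK signalling are read against the same share, 5725 of 10168 genes below 0. NFAT and calcineurin genes were lower for 14 of 17 measured (median -0.45). Nfatc1, which encodes an NFAT factor, was at 346 and 193 CPM, a ratio of -0.84 (-1.06 to -0.63), Nr4a3, a nuclear receptor induced by antigen-receptor signals, stood lowest at -0.87, and Ppp3cc, a calcineurin subunit, highest at 0.70. ERK and immediate-early genes were lower for 15 of 24 (median -0.39), between Spry2, an inhibitor of ERK signalling, at 0.59 and Spred2, another such inhibitor, at -1.48 on 133 and 18 UMIs. Junb was at 1459 and 1077 CPM, a ratio of -0.44, and Fos at 140 and 191 CPM, a ratio of 0.45. Of the other dual-specificity phosphatases 7 of 15 were higher and 8 lower (median -0.03). Dusp5, which acts on ERK, was at 517 and 395 CPM, the lowest ratio at -0.39, and Dusp16 the highest at 0.28. Within each library, members with an Itga1 UMI were compared with the others for the first 2 lists. NFAT and calcineurin genes were lower in them for 11 of 17 in WT and 14 of 15 in KO (medians -0.33 and -0.89). ERK and immediate-early genes were lower for 16 and 18 of 22 (medians -0.59 and -0.67). The part of such members in the ratios between libraries was not tested.

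Interferon-response genes had a median near that of all genes. Of 38 measured type I interferon-response genes 21 lay above 0 and 17 below (median 0.09), between Ly6a at 1.45 and Eif2ak2 at -0.55. Isg15 was at 66.6 and 88.2 CPM, a ratio of 0.41 (0.04 to 0.77), and Irf7 at 72.9 and 71.7 CPM. The Ifitm and Ly6 families stood higher, for 7 of 9 measured, with a median of 0.79. Ifitm1 had a ratio of 1.10, which turned to -0.60 on 189 WT and 32 KO UMIs in members of at most 2 times the median UMIs. Ifitm3 had a ratio of 0.79 and Ly6e of 0.41, and Ly6a and Ly6e belong to both lists.

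Genes of metabolism and the cell cycle were close between libraries. Among 31 oxidative phosphorylation genes, 27 lay above 0 (median 0.17), between Ndufa1 at 0.42 and Cox7a2 at -0.10, and of 23 genes of glycolysis and hypoxia 14 were higher (median 0.29), between Pgk1 at 0.60 and Hilpda at -0.87. MHC class I presentation genes were higher for 7 and lower for 10 of 17 (median -0.04), between Psme2 at 0.47 and H2-Q6 at -0.52. Heat shock and dissociation genes were higher for 9 of 13 (median 0.24), between Bag3 at 0.71 and Atf3 at -1.44 on 108 and 15 UMIs. Cell cycle genes were higher for 21 of 32 (median 0.30), between Rrm2 at 1.04 and Cenpa at -0.27. At least 2 UMIs of Mki67, Top2a, Birc5 and Cdk1 after thinning were held by 1.92% (0.881 to 3.61) of the WT members and 2.55% (0.699 to 6.39) of the KO members.

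**Figure D2:**
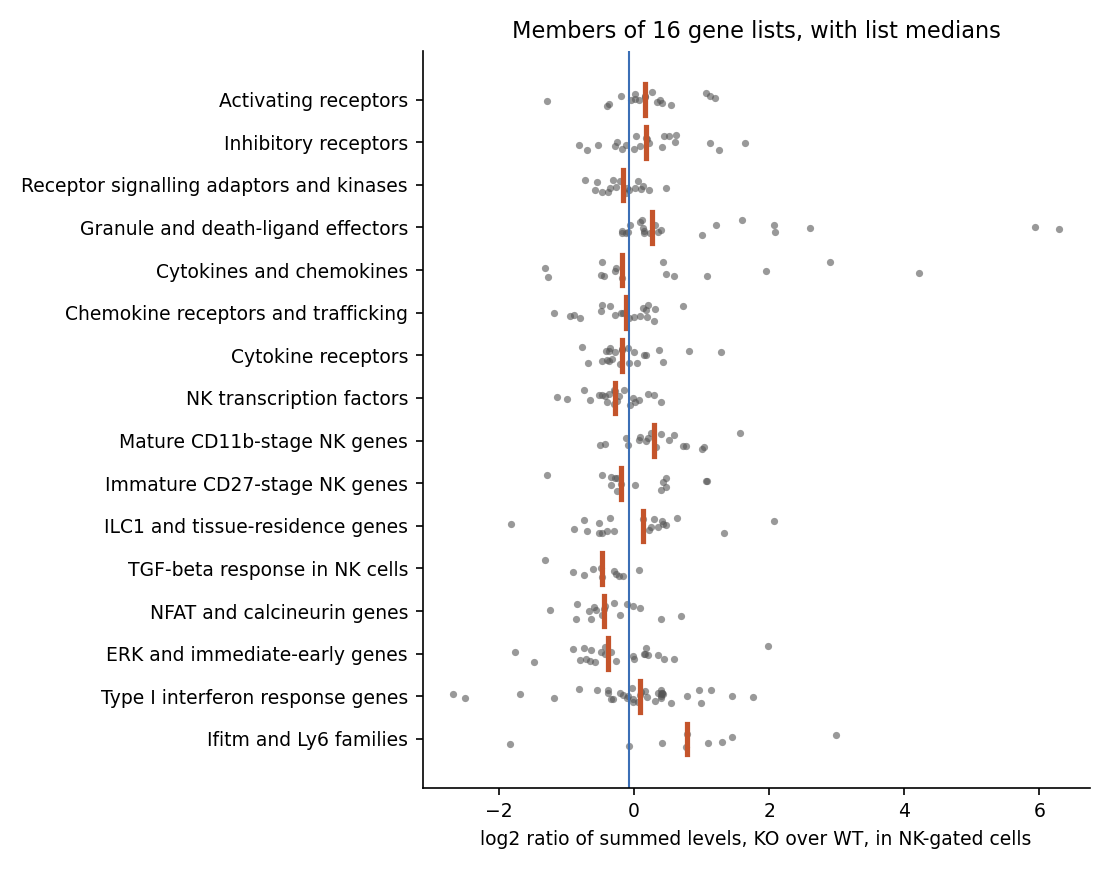
Log2 ratio of summed CPM, KO over WT, for each measured member (points) of 16 gene lists in NK-gated cells; red bars are list medians and the blue line the median of all measured genes, -0.07. The granule list reaches past 5, the TGF-beta and NFAT lists have medians of -0.47 and -0.45, and the Ifitm and Ly6 list one of 0.79.

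The stage genes divided the members unevenly. Members with Itgam, the CD11b gene, but no UMI of Cd27 or Itga1 numbered 57 of 483 in WT, 11.8% (9.06 to 15.0), and 10 of 187 in KO, 5.35% (2.59 to 9.61). Members with Cd27 or Itga1 but no Itgam were 47.2% and 50.8%, 55 and 13 cells had both, and 143 and 69 had none. The log2 ratio of the Itgam share was -1.14 (-2.08 to -0.20), -0.59 (-1.54 to 0.36) after thinning, where it was not detectable, and -2.81 (-4.84 to -0.79) at a gate sum of at least 4, on 38 WT and 2 KO cells. Of 18 genes known from the CD11b stage 14 were higher in KO (median 0.29), against 4443 of 10168 over all genes. Lgals3 stood highest at 1.57 and Ahnak lowest at -0.51. The ratio of Lgals3 was 2.55 in members with an Itga1 UMI and 0.80 in the others. This list did not mark the Itgam cells of KO. Over the Cd27 or Itga1 cells it was higher there for 11 of 16 in WT and 4 of 13 in KO. The medians were 0.62 and -0.17, against 0.01 and 0.57 over all genes. Of 15 known from the CD27 stage 7 were higher (median -0.19), between Xcl1 at 1.09 and Bcl2 at -0.47.

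Within each library, Itgam cells had more Gzma, Ccl5 and Ccl4 RNA, and cells with Cd27 or Itga1 more Gzmc, Gzmd and Gzme RNA. Of 4487 genes compared, 27 (0.602%) were at least 2-fold higher and 26 (0.579%) at least 2-fold lower in Itgam cells in both libraries. After thinning these counts were 1 and 11, and with all Itgam cells against all Cd27 or Itga1 cells they were 3 and 16. Gzma was at 5927 CPM in Itgam cells against 1809 CPM in WT, a log2 ratio of 1.71 (1.62 to 1.80), and in KO the ratio was 2.41. Ccl5 had ratios of 1.63 and 2.4, and Ccl4, another inflammatory chemokine, 1.71 and 2.77. Klra8 stood at 0.92 and 2.49, Klra9 at 1.06 and 3.07, Klra4 at 1.37 and 1.32, and Klf2, a factor of lymphocyte exit from tissue, at 0.80 and 3.26. Cdk14, Pim1, Itga2 and Itga4 were also in this group, at 1.52, 0.81, 1.06 and 0.82 in WT. The KO values rest on 23870 UMIs from 10 cells.

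In the other direction, Gzmc had 223 UMIs in WT Itgam cells, or 818 CPM, against 3461 CPM in the Cd27 or Itga1 cells, a ratio of -2.08 (-2.28 to -1.89). In KO it had 0 UMIs in Itgam cells and 10086 in the others, at least 110-fold lower with 3 UMIs set as the limit for the group. Gzmd stood at -3.67 in WT and was at least 21.8-fold lower in KO, and Gzme at -3.04 and at least 16.9-fold lower. Gzmf had 0 UMIs in Itgam cells of both libraries, at least 7.97-fold and 31.9-fold lower. Camk4, a calcium-dependent kinase, stood at -2.43 in WT and was at least 4.16-fold lower in KO. S100a4 had ratios of -1.38 and -3.30, Emb, an immunoglobulin-family protein, -1.57 and -1.37, Xcl1 -0.76 and -2.01, Ly6e -0.94 and -1.60, and Klrb1b, an inhibitory receptor, -0.79 and -2.52. Dscam and Styk1 stood at -1.99 and -1.58 in WT and had 0 UMIs in KO Itgam cells.

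Cells with Itga1 held most of the Gzmc and little of the Gzma, a comparison added after these values were seen. Members with an Itga1 UMI were 72 in WT (14.9%) and 35 in KO (18.7%). They were deep cells, with medians of 7106 and 8188 UMIs, and held 19.8% of all member UMIs in WT and 34.6% in KO, but 62.9% and 69.8% of Gzmc UMIs. Gzmc was detected in 68.1% of WT and 77.1% of KO Itga1 cells, with medians of 5 and 67 UMIs per cell, and in 19.95% and 23% of the other members, with medians of 0. Gzma ran the other way, with medians of 0 in Itga1 cells of both libraries and of 13 (WT) and 7 (KO) UMIs in the others.

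**Figure D3:**
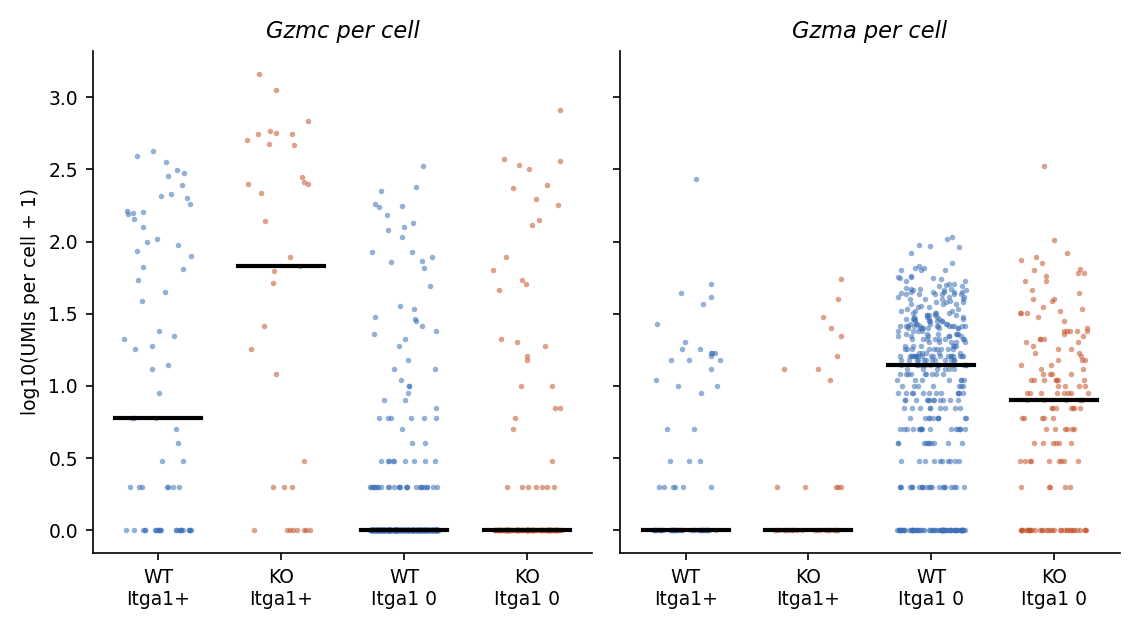
UMIs of Gzmc (left) and Gzma (right) per NK-gated cell, as log10(UMIs + 1), for WT (blue) and KO (orange) members with and without an Itga1 UMI; each point is a cell and black bars are medians. The Gzmc medians are 5 (WT) and 67 (KO) UMIs in Itga1 cells and 0 in the others, and the Gzma medians are 0 in Itga1 cells and 13 and 7 in the others.

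Over 4560 genes, 22 (0.482%) were at least 2-fold higher and 56 (1.23%) at least 2-fold lower in Itga1 cells in both libraries. Gzmc was at 8568 CPM in WT Itga1 cells and 1250 CPM in the other WT members, a log2 ratio of 2.78, and in KO the ratio was 2.13. Gzmd had ratios of 3.39 and 2.21, Gzme 2.87 and 2.51, and Gzmf 8.21 (2 UMIs outside Itga1 cells in WT, interval 6.33 to 11.3) and 3.35. Ifitm2 stood at 1.96 and 2.12, Cd226, the activating receptor DNAM-1, at 1.88 and 1.92, S100a4 at 1.32 and 1.54, Ly6c2 at 1.57 and 1.63, and Ramp1, a co-receptor for the peptide CGRP, at 1.81 and 1.88. Sema6d and Tmem176a, at 2.51 and 1.62 in WT, were also among the genes that ranked highest.

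Among NK transcription factors as a list, 11 were higher and 11 lower in WT Itga1 cells (median -0.02), and 3 and 18 in KO (median -0.72). Over all genes 5180 of 9688 lay below 0 in WT and 4607 of 7926 in KO. Eomes was at 71.8 CPM against 341 CPM in WT, a ratio of -2.25 (-2.74 to -1.80), and at -2.47 (-3.23 to -1.79) in KO. Klra8 stood at -2.25 and -5.60, Klra4 at -2.21 and -3.91, Klra7 at -1.62 and -3.24, Gzma at -1.33 and -2.55, Ccl5 at -1.31 and -3.08, and Klf2 at -2.08 and -2.04. Itga2 stood at -1.82 in WT and had 0 UMIs in KO Itga1 cells, at least 10.6-fold lower. Ccr7, a homing receptor for lymph nodes, had 2 UMIs in WT and 1 in KO Itga1 cells, ratios of -4.67 (-7.72 to -2.80) and -4.54 (-9.88 to -1.99). Nr4a2 and Dhrs3, at -1.37 and -1.81 in WT, were also among the 12 lowest. Of 21 measured genes of ILC1 and tissue residence 19 were higher in WT Itga1 cells (median 0.69), but 9 of 19 in KO (median -0.06). Itga1 is itself an ILC1 gene and chose these cells, so its own place on the higher side was fixed in advance. Between genotypes the same list was higher for 11 and lower for 10 of 21 (median 0.14), with Cxcr6, a residence-associated chemokine receptor, lowest at -0.88 on 88 and 18 UMIs.

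**Figure D4:**
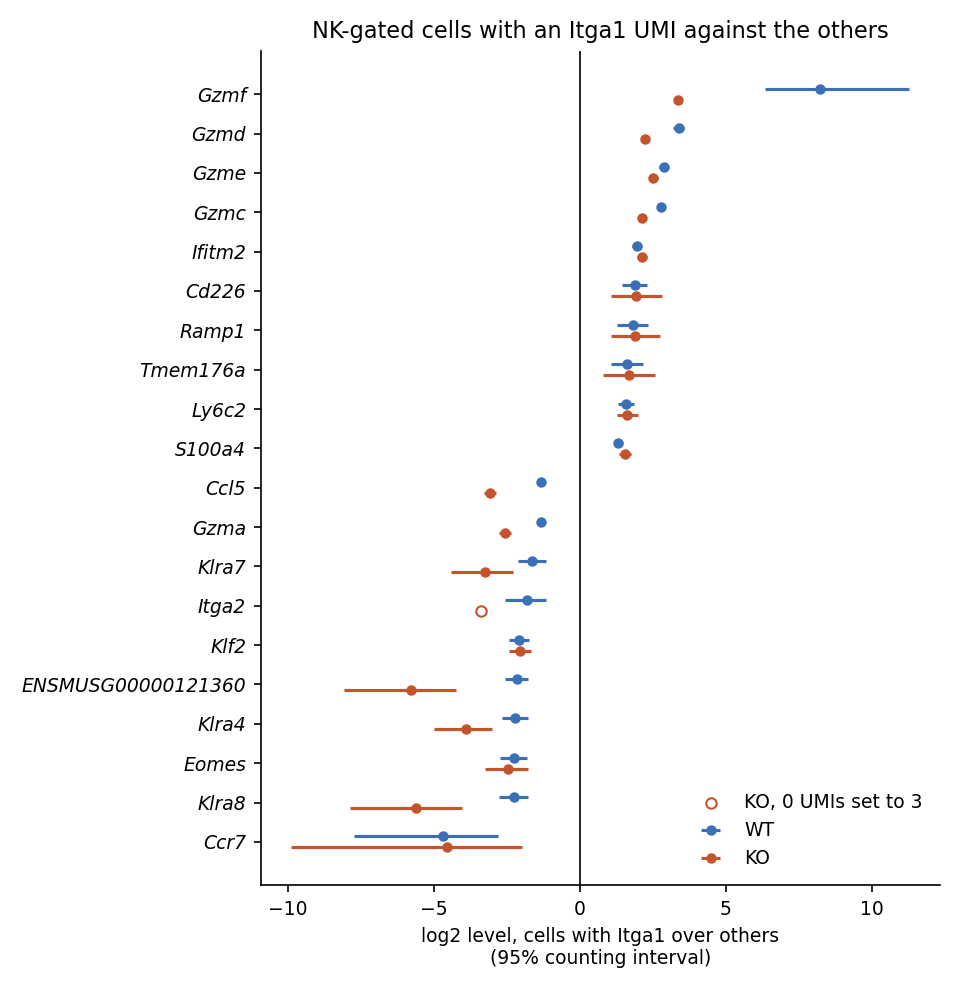
Log2 ratio of summed CPM in NK-gated cells with an Itga1 UMI over the other members, in WT (blue) and KO (orange), for the 10 genes ranked highest and the 10 ranked lowest; bars are 95% counting intervals and the open circle has 0 UMIs on one side, set to 3. The 4 Gzmc-cluster genes head the list in both libraries, and Eomes, Klra8 and Ccr7 lie at its foot.

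Grouping members by their own Gzmc UMIs, also after the values were seen, gave the same contrast without using Itga1. Members with at least 10 Gzmc UMIs were 66 of 483 in WT, 13.7% (10.7 to 17.1), and 44 of 187 in KO, 23.5% (17.6 to 30.3). At 2000 UMIs per cell they were 9.59% and 22.9%. Of them, 38 WT and 31 KO cells also held Gzmd, 5 and 20 held Gzmf, and 34 and 23 held Itga1. Their median depth was 8668 and 9362 UMIs, against 4975 and 3687 in members with 0 Gzmc UMIs. From members with 0 to those with at least 10 Gzmc UMIs, Eomes went from 383 to 27.8 CPM in WT and from 355 to 15.0 CPM in KO. Gzma went from 3294 to 986 CPM and from 4099 to 341 CPM, while Prf1 was close at both ends, 491 and 565 CPM in WT and 640 and 716 CPM in KO. Ifitm2 went from 202 to 1310 CPM in WT and from 213 to 2312 CPM in KO.

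**Figure D5:**
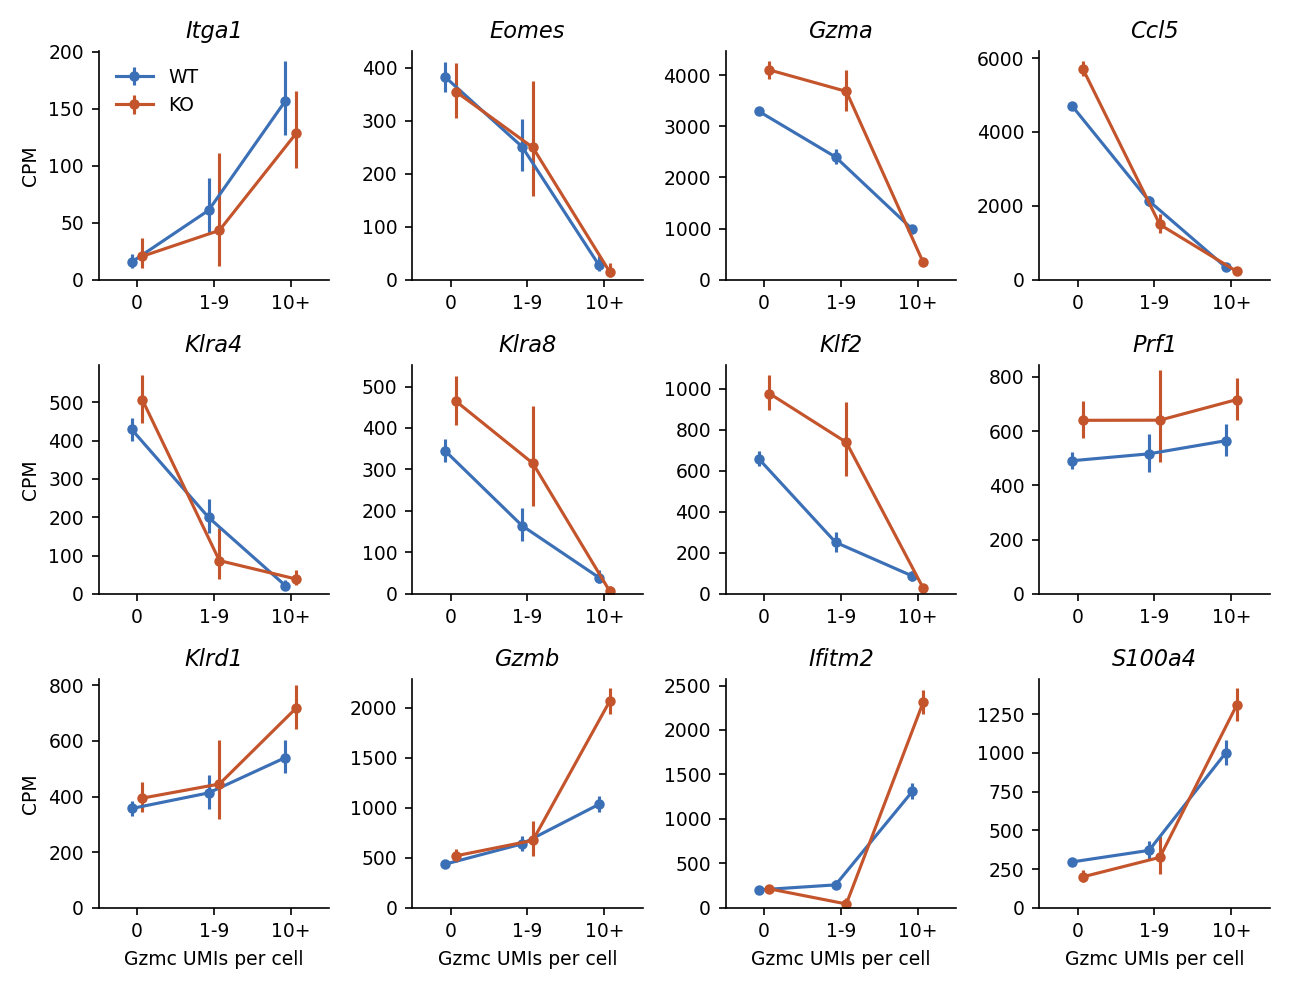
Summed CPM of 12 genes in NK-gated cells with 0, 1 to 9 and at least 10 Gzmc UMIs, in WT (blue) and KO (orange); bars are 95% counting intervals. Eomes, Gzma, Ccl5 and the Klra genes are lowest in cells with at least 10, Itga1, Gzmb and Ifitm2 highest, in both libraries.

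Differences between the libraries were also taken within the class of 0 Gzmc UMIs. There the ratio of KO over WT was 1.80 (1.57 to 2.03) for Spp1, below its value over all members, 1.66 for Xcl1, 2.17 for Dleu2, -1.48 for Cdk8 and -1.31 for Ski. In the same cells it was 0.08 (-0.24 to 0.39) for Ifitm2, 0.25 for Gzmb, 0.51 for Ly6a and -0.46 for S100a6.

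Cell-to-cell spread was concentrated in the same genes. At 2000 UMIs per cell, the variance over members divided by the mean had a median of 1.06 in both libraries. It was 34.7 in WT and 57.8 in KO for Gzmc, 20.5 and 90.0 for Gzmf, 15.2 and 24.0 for Ccl5, and 9.08 and 11.0 for Gzma. Gzmd and Gzme were also among the 10 genes with the highest ratios, as were Cd74 at 40.8 and 9.10, Ifitm1, Hspa1b and Cst3. For Cd74, 963 of 2419 UMIs in WT lay in the 18 members with under 5 UMIs of the 8 NK genes, and in KO 139 of 665 lay in the corresponding 12.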

How the data were processed

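Both 10x Genomics 3' libraries (1 WT, 1 KO) were read from the deposited matrices of raw UMI counts per gene and barcode, which the authors had filtered to cell barcodes. Per the submitters' processing notes, Cell Ranger 6.0.1, Seurat 4.0.3 and 4.0.4 and mm10 were used, while the file headers name Cell Ranger 8.0.1. The sources used here give neither the annotation release nor the strand setting. The files held 113873249 UMIs (WT) and 101532711 UMIs (KO), with 2881687 and 1087906 in the members.

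A barcode was kept at 200 genes or more with no more than 20% of UMIs from mitochondrial genes, and the gate was applied to raw counts. UMIs were summed per library and group. Levels have exact Poisson intervals, ratios of levels exact conditional intervals and shares Clopper-Pearson intervals, all at 95%. Log2 ratios of 2 shares have 95% intervals from a normal approximation on the log scale, which is rough where few cells are counted. A group at 0 UMIs was set to 3. No doublet caller was run, and members of at most 2 times the median UMIs served as an alternative. Named genes were the 12 per direction whose interval bound lay farthest from 0 among ranked genes, the 10 with the highest variance over mean, and the highest and lowest members of each gene list with at least 30 CPM in 1 library, plus members whose role in NK cells is described. A gene that this rule named in the Itga1 comparison is not reported here. The members and the 31 lists were chosen with earlier results of these data known. Counts were simulated for the comparison of KO over WT (4696 genes, 200 changed). The procedure recovered 98.5% of changed genes and put 0.0667% of unchanged genes past the fold, and the intervals covered 95.1% of true ratios. The simulation drew summed counts with counting error only, the model behind the intervals. It had no spread between cells or libraries, so these rates do not carry over to genes clumped in few cells. Of 33696 feature IDs, 31961 (94.9%) were in the GRCm38 annotation from which gene positions were taken. Promoter windows came from RefSeq GRCm38.p6. Python 3.11.15, numpy 2.4.6, scipy 1.17.1, pandas 2.3.3 and matplotlib 3.10.9 were used.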

Additional observations from a re-analysis of the deposited data

Results flagged for a closer look

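In 3 genes of the granzyme cluster the libraries differed in opposite directions in NK-gated and CD8 T-gated cells. In CD8 T-gated cells the log2 ratio of KO over WT was -3.88 for Gzmf, -4.01 for Gzmd and -6.28 for Gzme, while in NK-gated cells it was 5.93, 2.61 and 2.09. With 1 library per genotype the difference between the cell types was not tested.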

How the results depend on the processing

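No paired analysis was possible because each genotype had 1 library. Few cells and UMIs limit the Itgam comparison, since 10 KO cells gave 23870 UMIs. Of 322 values under alternatives for the 24 genes named by KO over WT ratio and the others named by cell-to-cell spread, 296 kept their sign, and of 151 list medians 135 did. Near-identical barcodes and members with little NK RNA were handled in alternatives chosen after seeing the data. The sign turned in these genes. In cells of at most 2 times the median UMIs, Cxcl1 stood at 0.80, Ccl5 at 0.38, Gzma at 0.28, Ifitm1 at -0.60 and Hspa1b at 0.18. As a mean of single-cell CPM, Cxcl1 stood at 0.43, Ccl5 at 0.10, Gzma at 0.027 and Hspa1b at 0.17, and after thinning Ccl5 stood at 0.033. In the Itgam group alone, Cxcl1 stood at 2.51, Spp1 at -3.06, Gzmc at -2.70, Lgals3 at -0.44, Ifitm2 at -3.75, Ski at 0.14, Ccl5 at 0.30, Gzma at 0.11, Ifitm1 at -3.71 and Cst3 at -3.06. In the Cd27 or Itga1 group alone, Cd74 stood at 0.91 and Hspa1b at 0.56. Without other-lineage UMIs Cd74 stood at 0.62 and Hspa1b at 0.37, at a gate sum of at least 4 Cd74 stood at 0.66, and with 1 barcode per near-identical group Cst3 stood at -0.24. The cause was not tested.

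The log2 ratio of the NK-gated share (-1.74) was -0.88 without other-lineage UMIs and -0.91 over barcodes without Cd79a. That of the Itgam share (-1.14) was -2.81 at a gate sum of at least 4. The 29 genes 2-fold higher in KO were 10 in cells of at most 2 times the median UMIs, 14 after thinning and 245 with at least 10 UMIs and no CPM minimum. The 62 lower were 116 at a gate sum of at least 4, 35 with the median set to 0, 95 after thinning, 615 with at least 10 UMIs, 110 in the Itgam group alone and 133 in the Cd27 or Itga1 group alone. For the Itgam comparison, the 27 higher were 11 at most 2 times the median UMIs, 3 with all Itgam cells against all Cd27 or Itga1 cells, 10 against Cd27 alone, 14 against Itga1 alone and 1 after thinning. The 26 lower were 6 at a gate sum of at least 4, 16 with all cells of both kinds and 11 after thinning. For the Itga1 comparison, the 22 higher were 9 after thinning, and the 56 lower were 25 at most 2 times the median UMIs and 36 after thinning. The cause of these changes was not tested.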
